A study of Homo sapiens with 12 samples.

Results

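Genes of the major histocompatibility complex (MHC) and of antigen presentation were followed across 4 groups of U-87 MG cells, a long-established human glioma line. The genes were all symbols beginning HLA- together with the class II transactivator CIITA, the invariant chain CD74, the class I light chain B2M, the peptide transporters TAP1 and TAP2, the loading factor TAPBP, the proteasome genes PSMB8, PSMB9, PSMB10, PSME1 and PSME2, the class I transactivator NLRC5, the trimming peptidases ERAP1 and ERAP2, the protease CTSS and the promoter factor RFX5. Of 19775 genes measured, 37 were such members: 22 HLA- genes and 15 of the other 16. PSME2 was read only by a probe set that lists several symbols and was not used. By role, 17 members belong to class I and 19 to class II, and 1, HLA-F-AS1, is an antisense RNA.

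All cells were U-87 MG cells carrying a stably transfected short hairpin RNA. The shp105 cells carried a hairpin against p105, the NFKB1 product from which the NF-kB subunit p50 is made, and the shControl cells carried a control hairpin. Each line was kept for 16 h with 100 uM temozolomide (TMZ), a DNA-methylating drug used against glioma, or with its vehicle DMSO (0 uM TMZ). This gave the groups shControl DMSO, shControl TMZ, shp105 DMSO and shp105 TMZ, with 3 expression arrays each (n = 3 behind every group mean). The labels give 1 line per hairpin and do not say whether it was a clone or a pool, so the hairpin and any other difference between these lines cannot be told apart. The replicates are called biological, with no word on separate cultures, so the p-values cover just the spread among these samples, which may be technical.

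MHC class I molecules sit on nearly all nucleated cells and show peptides made by the proteasome in the cytosol, which TAP pumps into the endoplasmic reticulum, to CD8 T cells. Class II molecules show peptides from endosomes to CD4 T cells. Their genes are normally on in professional antigen-presenting cells and can be switched on elsewhere by interferon gamma through CIITA. CIITA docks on factors bound to the X and Y boxes of class II promoters. NF-kB and interferon response elements are textbook features of class I promoters.

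The promoters are shown because they set out which control elements the class I and class II genes measured here carry. Each line gives the 200 bases before the first RefSeq start of a gene, 5′ to 3′ on the gene's strand, from assembly GRCh38.p14. Capitals mark matches of 4 searched motifs on either strand. They are the Y box CTGATTGG, the X box core CAACNGATG, the NF-kB consensus, and the interferon response core, which is GAAA repeated after 2 further bases. Class II genes come first, at chr6:32589849-32590048 (minus strand), chr6:32666658-32666857 (minus) and chr6:32953098-32953297 (minus). The class I genes follow, at chr6:31357180-31357379 (minus), chr15:44711317-44711516 (plus) and chr6:32853705-32853904 (minus).
HLA-DRB1: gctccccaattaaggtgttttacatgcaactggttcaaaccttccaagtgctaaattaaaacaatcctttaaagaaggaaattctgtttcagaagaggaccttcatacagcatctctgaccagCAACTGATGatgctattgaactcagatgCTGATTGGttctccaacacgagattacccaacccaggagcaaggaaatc
HLA-DQB1: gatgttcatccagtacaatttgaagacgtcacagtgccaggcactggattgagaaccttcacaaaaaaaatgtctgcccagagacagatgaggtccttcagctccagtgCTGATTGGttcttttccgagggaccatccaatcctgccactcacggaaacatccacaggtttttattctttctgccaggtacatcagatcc
HLA-DMA: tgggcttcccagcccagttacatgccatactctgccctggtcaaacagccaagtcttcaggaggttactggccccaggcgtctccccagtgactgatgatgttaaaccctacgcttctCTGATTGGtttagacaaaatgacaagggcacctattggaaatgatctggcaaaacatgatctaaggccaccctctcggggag
HLA-B: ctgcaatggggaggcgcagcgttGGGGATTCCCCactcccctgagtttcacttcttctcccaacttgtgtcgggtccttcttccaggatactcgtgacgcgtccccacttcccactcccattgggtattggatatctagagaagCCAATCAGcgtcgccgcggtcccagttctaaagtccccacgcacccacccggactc
B2M: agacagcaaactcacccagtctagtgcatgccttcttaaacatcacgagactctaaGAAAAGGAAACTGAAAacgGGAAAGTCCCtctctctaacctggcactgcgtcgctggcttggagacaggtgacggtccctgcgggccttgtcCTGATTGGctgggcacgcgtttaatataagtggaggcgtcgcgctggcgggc
TAP1: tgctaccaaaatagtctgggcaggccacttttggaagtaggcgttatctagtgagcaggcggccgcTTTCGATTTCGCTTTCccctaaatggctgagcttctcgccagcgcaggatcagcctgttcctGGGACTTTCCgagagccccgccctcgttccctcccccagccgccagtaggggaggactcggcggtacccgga

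The Y box stands in 5 of these 6 windows, all but that of TAP1. It begins 49 bases before the start in HLA-DRB1, 91 in HLA-DQB1, 82 in HLA-DMA, 56 in HLA-B (on the other strand) and 52 in B2M. A RefSeq window of 300 bases (250 before to 50 after the start) was at hand for 27 of the 37 members. These 27 genes have 36 windows, and for each motif as many of these windows as genes matched. The Y box matched in 10 genes, by 10 of the 36 windows, and in 3.97% of all 35116 windows. The exact X box core matched in 1 gene, HLA-DRB1, and in 0.441% of windows. The NF-kB consensus matched in 10 genes and in 11.3% of windows, among them HLA-B, B2M and TAP1 of the windows printed. The 3 class II windows printed hold none, but those of CD74, HLA-DPA1 and HLA-DQB2 do. The interferon response core matched in 11 genes and in 3.57% of windows, among them B2M and TAP1. Matches of the NF-kB consensus and of the interferon core can overlap copies of themselves, as the long capital runs show. A match is a description of letters, not a bound site.

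Array levels are log2 values, and levels of different genes are not compared, since each probe has its own brightness. The median level of an array lay between 5.04 and 5.09. Control probe sets against bacterial sequences that human cells lack had group means between 2.43 and 4.17, and 5 members stood at or below that ceiling in all 4 groups. These were HLA-DOB, HLA-DPA2, HLA-DPB2, HLA-DQA1 and HLA-DRB4, all class II, and none of them was called on the probe set that stood for it. Of the glioma line markers VIM, the mesenchymal intermediate filament, stood at 14.73 to 14.81 by group mean and the glial filament GFAP at 5.05 to 5.21, both above that ceiling. The glial markers S100B (3.50 to 3.63) and FABP7 (3.47 to 3.59) were below it. A gene is called when its limma p, adjusted by Benjamini-Hochberg over all 19775 genes, is under 0.05. Of the 10 glioma line markers measured, 2 were called higher and 1 lower in shp105 than in shControl cells under each treatment. Of all genes 8.34% were higher and 11.6% lower in DMSO, and 10.1% and 11% in TMZ. Differences of the 10 markers ran from -0.25 to 2.21 in DMSO and from -0.32 to 2.96 in TMZ.

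NFKB1, the hairpin's target, stood at 7.40, 7.23 and 7.34 in shControl cells with DMSO and at 7.50, 7.45 and 7.30 with TMZ. In shp105 cells it stood at 7.17, 7.27 and 7.16 with DMSO and at 7.14, 7.22 and 7.14 with TMZ. The groups overlapped in DMSO and lay apart in TMZ. Subtracting shControl from shp105, the difference in DMSO was -0.12 (SE 0.07, adjusted p = 0.260), not called, and -0.25 (SE 0.07, adjusted p = 0.0204) in TMZ. The TMZ call was lost without replicate 1 or 3 of shp105 TMZ or replicate 1 or 2 of shControl TMZ (adjusted p = 0.0585 to 0.0903), when just the 6 TMZ arrays were fitted (0.0558), and when the brightness of the arrays' hybridization controls entered the fit (0.565).

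Class II genes were lower in shp105 cells. In DMSO, 14 of the 37 members were called, against 19.9% of all genes, and in TMZ 17 of 37, against 21.1%. Of the 19 class II members 10 were called lower in DMSO and 0 higher, where 11.6% of all genes were called lower and 8.34% higher. In TMZ the same 10 were lower, where 11% of all genes were. On all 6 shp105 arrays each of these 10 lay below all 6 shControl arrays, as 9.79% of all genes did. The median difference over the 19 was -0.38 in DMSO and -0.26 in TMZ, against -0.01 over all genes in both. In bulk RNA, fewer cells with class II transcripts and fewer transcripts per cell cannot be told apart. For the 14 class II members above the background ceiling in at least 1 group it was -0.57 and -0.48.

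**Figure D1:**
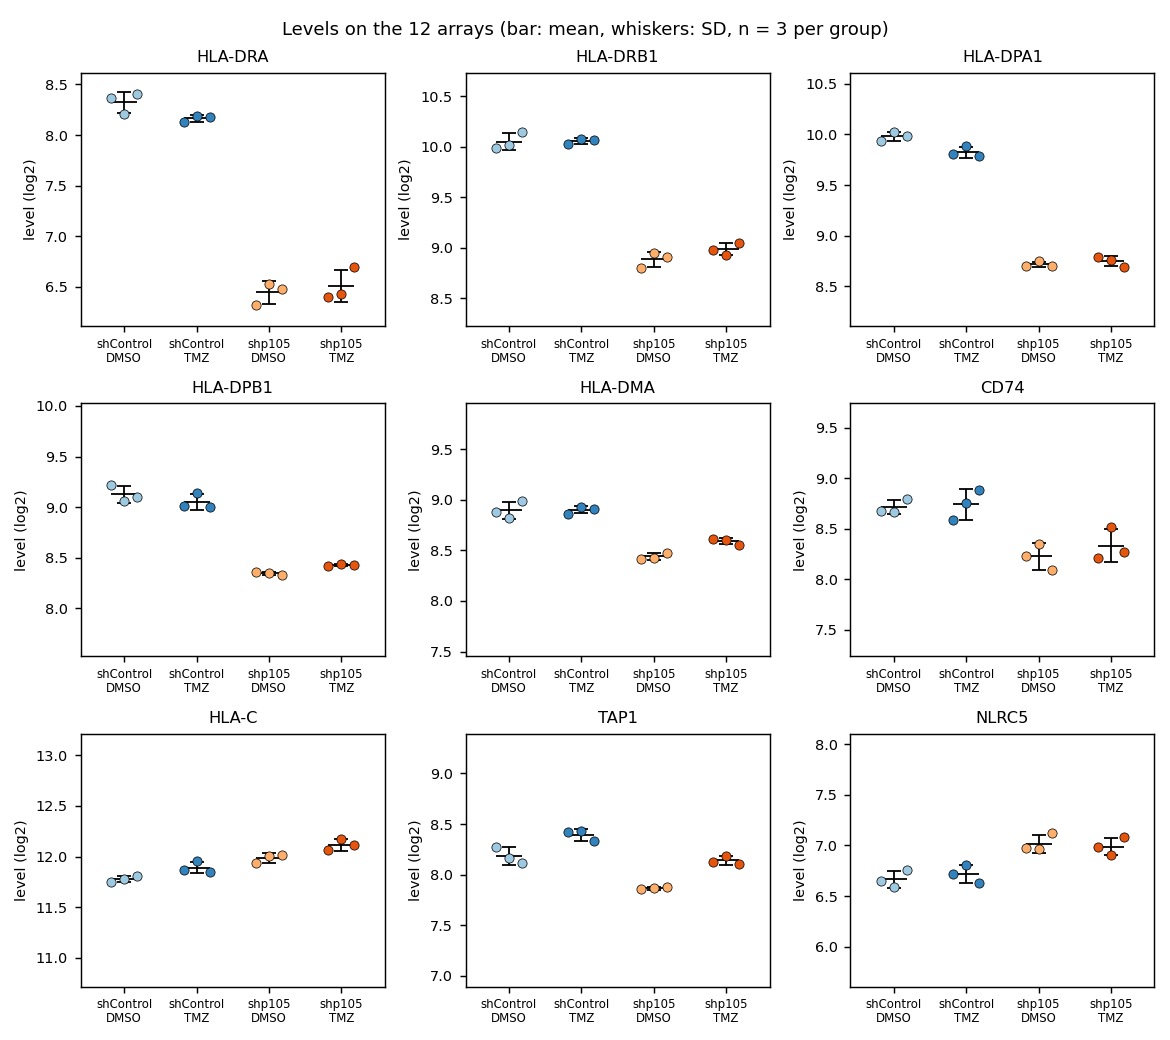
Log2 level (y axis, all panels with axes of equal span) of 9 genes on each of the 12 arrays, by group (x axis); points are arrays, bars the group mean and whiskers the SD (n = 3). HLA-DRA, HLA-DRB1, HLA-DPA1, HLA-DPB1, HLA-DMA and CD74 are lower on every shp105 array than on any shControl array; HLA-C and NLRC5 are higher in shp105 cells under each treatment, and TAP1 lower.

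HLA-DRA encodes the invariant alpha chain of the HLA-DR molecule, on which all DR beta chains depend. Its level was 8.37, 8.20 and 8.40 in shControl cells with DMSO and 8.13, 8.19 and 8.18 with TMZ. In shp105 cells it was 6.32, 6.53 and 6.48 with DMSO and 6.40, 6.43 and 6.69 with TMZ. The lines did not overlap under either treatment. The difference was -1.88 (SE 0.09, 3.68-fold lower, adjusted p = 3.42e-08) in DMSO and -1.66 (SE 0.09, 3.15-fold, adjusted p = 1.02e-07) in TMZ. A separate probe set of the gene gave -1.41 and -1.45.

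HLA-DRB1, the main polymorphic DR beta chain, read 9.98, 10.02 and 10.15 in shControl cells with DMSO and 10.02, 10.08 and 10.06 with TMZ. In shp105 cells it read 8.80, 8.95 and 8.91 with DMSO and 8.98, 8.93 and 9.05 with TMZ. Every shp105 array was again below every shControl array. The difference was -1.16 (SE 0.06, 2.24-fold lower, adjusted p = 1.04e-07) in DMSO and -1.07 (SE 0.06, 2.09-fold, adjusted p = 2.17e-07) in TMZ. HLA-DRB6, a DR beta pseudogene, was lower by -0.74 (SE 0.13) in DMSO and -0.59 (SE 0.13) in TMZ. The probe set that stood for HLA-DRB6 and the only probe set of HLA-DRB1 are of a design that can bind several related transcripts. Signals from HLA-DRB1, HLA-DRB6 and related RNA therefore cannot be told apart. The other HLA-DRB6 probe set, at background, gave -0.23 and 0.03, and with the mean of both the TMZ call was lost (-0.28, adjusted p = 0.0587).

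The HLA-DP molecule pairs the chains of HLA-DPA1 and HLA-DPB1. HLA-DPA1 stood at 9.94, 10.02 and 9.99 in shControl cells with DMSO and at 9.80, 9.88 and 9.79 with TMZ. In shp105 cells the values were 8.70, 8.74 and 8.70 with DMSO and 8.79, 8.76 and 8.69 with TMZ. The lines lay far outside each other's range, with a difference of -1.27 (SE 0.05, 2.40-fold lower, adjusted p = 1.21e-08) in DMSO and -1.08 (SE 0.05, 2.11-fold, adjusted p = 4.63e-08) in TMZ. The 3 probe sets of HLA-DPA1 gave -0.74 to -1.27 in DMSO. HLA-DPB1 read 9.22, 9.07 and 9.10 in shControl cells with DMSO and 8.36, 8.35 and 8.33 in shp105 cells. The groups lay apart, and the difference was -0.78 (SE 0.06, adjusted p = 1.64e-06) in DMSO and -0.62 (SE 0.06, adjusted p = 1.11e-05) in TMZ. A second HLA-DPB1 probe set, at a mean level of 2.90 and so at background, gave 0.14 and -0.22.

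HLA-DQB1, the DQ beta chain, was read by 7 probe sets, more than any other member. All 7 gave differences below 0 under both treatments, from -0.13 to -1.44 in DMSO and from -0.19 to -1.13 in TMZ. Most, including the probe set that stood for the gene, are of a design that can bind several related transcripts. On these, signals from HLA-DQB1 and related RNA cannot be told apart. Of those of another design, the brighter, at a mean level of 4.68, gave -1.16 in DMSO and -1.13 in TMZ. The dimmer, at 2.95, was at background. The probe set that stood for the gene gave 6.76, 7.07 and 7.06 in shControl cells with DMSO and 6.16, 6.33 and 6.39 in shp105 cells, which do not overlap. Its difference was -0.67 (SE 0.09, adjusted p = 0.000234) in DMSO and -0.75 (SE 0.09, adjusted p = 9.58e-05) in TMZ. The partner chain HLA-DQA1 was at background on its 3 probe sets, 1 of which gave -0.36 (adjusted p over probe sets = 0.0115) in TMZ. HLA-DQB2, a related beta chain, was dim at 4.26 to 4.69 and was not called.

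HLA-DMA and HLA-DMB form HLA-DM, the endosomal catalyst that strips the invariant chain fragment from class II molecules. HLA-DMA stood at 8.88, 8.82 and 8.99 in shControl cells with DMSO and at 8.86, 8.93 and 8.91 with TMZ. In shp105 cells it stood at 8.42, 8.42 and 8.48 with DMSO and at 8.61, 8.60 and 8.56 with TMZ. The lines stayed apart, by -0.46 (SE 0.05, adjusted p = 8.4e-05) in DMSO and -0.31 (SE 0.05, adjusted p = 0.00132) in TMZ. HLA-DMB read 6.96, 6.91 and 7.06 against 6.25, 6.62 and 6.13 in DMSO, a difference of -0.64 (SE 0.11, adjusted p = 0.00166). In TMZ its difference was -0.55 (SE 0.11, adjusted p = 0.0047). HLA-DOA, a chain of the molecule that restrains HLA-DM, was not called (0.08 in DMSO, -0.08 in TMZ).

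CD74, the invariant chain that blocks and guides new class II molecules, stood at 8.68, 8.67 and 8.80 in shControl cells with DMSO and at 8.23, 8.35 and 8.09 in shp105 cells. With TMZ it stood at 8.58, 8.75 and 8.89 against 8.21, 8.52 and 8.27. The lines did not overlap, and the difference was -0.49 (SE 0.10, adjusted p = 0.00438) in DMSO and -0.41 (SE 0.10, adjusted p = 0.0125) in TMZ. The TMZ call was lost without shp105 TMZ replicate 1 (adjusted p = 0.0505) and without shControl TMZ replicate 3 (0.0560). Both other CD74 probe sets were dimmer and lay within 0.07 of no difference, and with the mean of all 3 the difference was -0.17 in DMSO (adjusted p = 0.288) and -0.15 in TMZ (adjusted p = 0.330). CTSS, cathepsin S, the endosomal protease that trims CD74, read 9.28, 9.24 and 9.20 in shControl cells with DMSO and 8.92, 8.82 and 8.84 in shp105 cells. Its difference was -0.38 (SE 0.05, adjusted p = 0.000322) in DMSO and -0.26 (SE 0.05, adjusted p = 0.00397) in TMZ, and all 3 of its probe sets gave differences below 0.

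For the regulators of class II transcription the outcome depended on the probe set. CIITA, the master switch, stood at 5.09, 5.25 and 5.23 in shControl cells with DMSO and at 5.36, 5.25 and 5.24 in shp105 cells. With TMZ it stood at 5.27, 5.32 and 5.26 against 5.18, 5.35 and 4.90. The groups overlapped under both treatments, with differences of 0.09 (SE 0.10, adjusted p = 0.592) and -0.14 (SE 0.10, adjusted p = 0.368). That probe set was not called, but the next brightest of the 3 gave -0.23 (SE 0.10, adjusted p = 0.184) in DMSO and -0.40 (SE 0.10, adjusted p = 0.0204) in TMZ, with p adjusted over all 41097 single-symbol probe sets. The dimmest gave -0.08 and 0.08, and with the mean of all 3 CIITA was not called (adjusted p = 0.572 in DMSO and 0.146 in TMZ). RFX5, a subunit of the factor that binds the X box, differed by -0.14 (SE 0.06, adjusted p = 0.108) in DMSO and -0.03 (SE 0.06, adjusted p = 0.789) in TMZ. In DMSO its groups did not overlap, at 9.47, 9.29 and 9.41 against 9.25, 9.25 and 9.22, where 20.8% of all genes lay apart and lower. RFX5 was called lower there with the mean of both its probe sets (-0.21, adjusted p = 0.0113), with genes below the median level left out (adjusted p = 0.0357) and without shControl DMSO replicate 2 (adjusted p = 0.0423). Its other probe set gave -0.27 (SE 0.06, adjusted p over probe sets = 0.0115) in DMSO and -0.07 in TMZ. Of the other 6 class II promoter factors measured (RFXAP, RFXANK, NFYA, NFYB, NFYC and CREB1) 0 were called under either treatment. Of all genes 19.9% were called in DMSO and 21.1% in TMZ. At an unadjusted p under 0.05, 1 of the 6 passed in each, as did 5898 and 6305 of all 19775 genes.

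**Figure D2:**
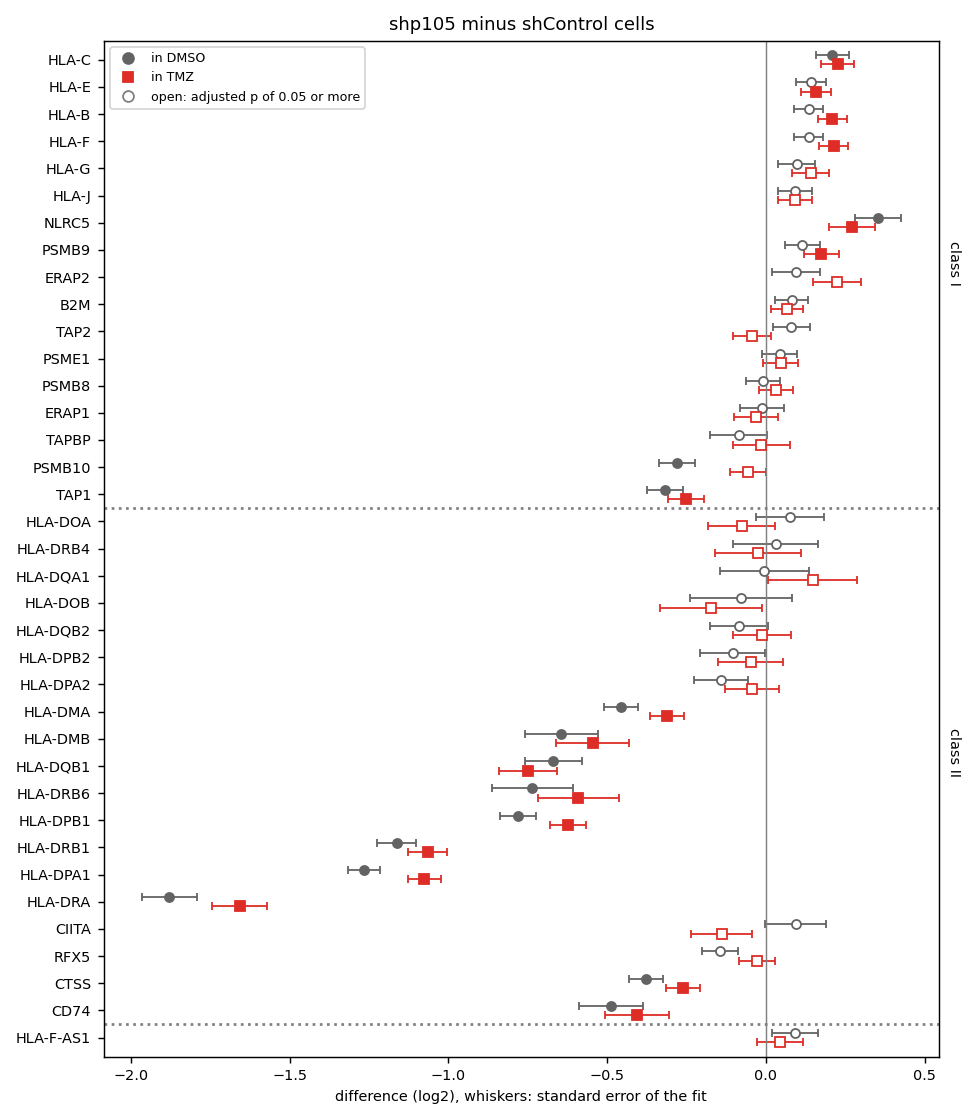
Difference between the lines, shp105 minus shControl (x axis, log2), for the 37 members (y axis) in DMSO (circles) and in TMZ (squares), with the standard error of the fit; filled symbols are called. The 10 called class II genes reach from -0.26 to -1.88, whereas class I genes lie between -0.32 and 0.35 on both sides of 0.

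Class I genes differed little. In DMSO 2 of 17 were called higher and 2 lower, near the 8.34% and 11.6% of all genes. In TMZ 6 were called higher, where 10.1% of all genes were, and 1 lower, where 11% were. The median difference over the 17 was 0.09 under each treatment, and no class I gene reached a 2-fold difference. Across both treatments 13 members were called the same way, of which 3 were class I (HLA-C, NLRC5 and TAP1) and 10 class II. Both comparisons set the same lines against each other. The share of all genes called the same way in both was not counted, so these counts have no measure beside them.

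The differences of all 6 class I heavy chain genes were above 0 under each treatment. HLA-C stood at 11.75, 11.77 and 11.81 in shControl cells with DMSO and at 11.93, 12.01 and 12.02 in shp105 cells. With TMZ it stood at 11.87, 11.96 and 11.85 against 12.06, 12.18 and 12.12. The lines lay apart under each treatment, by 0.21 (SE 0.05, 1.16-fold, adjusted p = 0.0152) in DMSO and 0.23 (SE 0.05, 1.17-fold, adjusted p = 0.00957) in TMZ. The DMSO call was lost without shp105 DMSO replicate 3 (adjusted p = 0.0596) and without shControl DMSO replicate 1 (0.0554). The TMZ call was lost when just the 6 TMZ arrays were fitted (adjusted p = 0.0511). All 4 probe sets of HLA-C gave differences above 0 under both treatments.

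HLA-B, the other classical heavy chain, read 11.82, 11.82 and 11.84 in shControl cells with DMSO and 11.91, 12.02 and 11.94 in shp105 cells. With TMZ it read 11.95, 11.93 and 11.92 against 12.13, 12.13 and 12.17. The groups lay apart, and the difference was 0.13 (SE 0.05, adjusted p = 0.0672) in DMSO, not called, and 0.21 (SE 0.05, adjusted p = 0.00718) in TMZ, called. HLA-E, a ligand of the natural killer receptor NKG2A, was higher in TMZ by 0.16 (SE 0.05, adjusted p = 0.0328). HLA-F, another nonclassical heavy chain, was higher in TMZ by 0.21 (SE 0.04, adjusted p = 0.0048). In DMSO these differed by 0.14 and 0.13 and were not called, although HLA-F was called there without shp105 TMZ replicate 2 (adjusted p = 0.0494). HLA-G, the heavy chain best known from trophoblast, and the pseudogene HLA-J were at 0.10 and 0.09 in DMSO and at 0.14 and 0.09 in TMZ, not called. The probe sets that stand for these 6 genes are of the kind that can bind related heavy chains, so shares between class I genes cannot be told apart. Without such probe sets HLA-E gave 0.14 (adjusted p = 0.200) and HLA-F -0.10 (adjusted p = 0.655) in TMZ. The HLA-E call in TMZ was also lost without shp105 TMZ replicate 1 or 2 or any single shControl TMZ replicate (adjusted p = 0.0539 to 0.113).

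NLRC5, the transactivator that takes the place of CIITA at class I promoters, was higher in shp105 cells. It stood at 6.65, 6.59 and 6.75 in shControl cells with DMSO and at 6.97, 6.96 and 7.12 in shp105 cells. With TMZ it stood at 6.72, 6.81 and 6.63 against 6.98, 6.91 and 7.08. All 6 shp105 arrays lay above all 6 shControl arrays, as for 8.32% of all genes. The difference was 0.35 (SE 0.07, adjusted p = 0.00437) in DMSO and 0.27 (SE 0.07, adjusted p = 0.0184) in TMZ. The TMZ call was lost without shp105 TMZ replicate 3 (adjusted p = 0.0688), shControl TMZ replicate 1 (0.0539) or shControl TMZ replicate 3 (0.0796).

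Among the peptide supply genes TAP1, one chain of the transporter that brings peptides to class I, read 8.28, 8.16 and 8.11 in shControl cells with DMSO and 7.85, 7.86 and 7.88 in shp105 cells. With TMZ it read 8.42, 8.43 and 8.33 against 8.13, 8.19 and 8.10. The lines were apart under each treatment, by -0.32 (SE 0.06, 1.25-fold lower, adjusted p = 0.00162) in DMSO and -0.25 (SE 0.06, 1.19-fold, adjusted p = 0.00699) in TMZ. The other chain, TAP2, was not called (0.08 in DMSO, -0.04 in TMZ). With the mean of its 4 probe sets it was called lower in TMZ (-0.20, adjusted p = 0.0284) and not in DMSO (0.01, adjusted p = 0.954). All 4 gave differences below 0 in TMZ, and the lowest gave -0.46 (adjusted p over probe sets = 0.0299).

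PSMB10, a catalytic subunit of the immunoproteasome, stood at 9.14, 9.02 and 9.14 in shControl cells with DMSO and at 8.85, 8.76 and 8.86 in shp105 cells, a difference of -0.28 (SE 0.06, adjusted p = 0.00432). With TMZ its groups overlapped and the difference was -0.06 (SE 0.06, adjusted p = 0.557). The change of its line difference between the treatments was 0.22 (SE 0.08, adjusted p = 0.726), which was not called. PSMB9, another immunoproteasome subunit, was called in TMZ at 0.17 (SE 0.05, adjusted p = 0.0391). That call was lost without any single one of 9 of the 12 arrays (adjusted p = 0.0501 to 0.148), the exceptions being replicate 2 of shControl TMZ, of shp105 DMSO and of shp105 TMZ. B2M, the light chain of all class I molecules, differed by 0.08 and 0.07 and was not called. PSMB8, PSME1, ERAP1, ERAP2 and TAPBP were likewise not called, at -0.09 to 0.09 in DMSO and -0.03 to 0.22 in TMZ, nor was HLA-F-AS1 (0.09 and 0.04). A dimmer probe set of ERAP1 gave -0.50 in TMZ (adjusted p over probe sets = 0.0186). ERAP2 in TMZ came nearest (adjusted p = 0.0564) and was called without shp105 TMZ replicate 3 (adjusted p = 0.0442) or without shControl DMSO replicate 1 (0.0242). However, 2 of its 5 probe sets gave differences below 0 in TMZ. With the mean of all 5 it was not called there (0.09, adjusted p = 0.311).

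**Figure D3:**
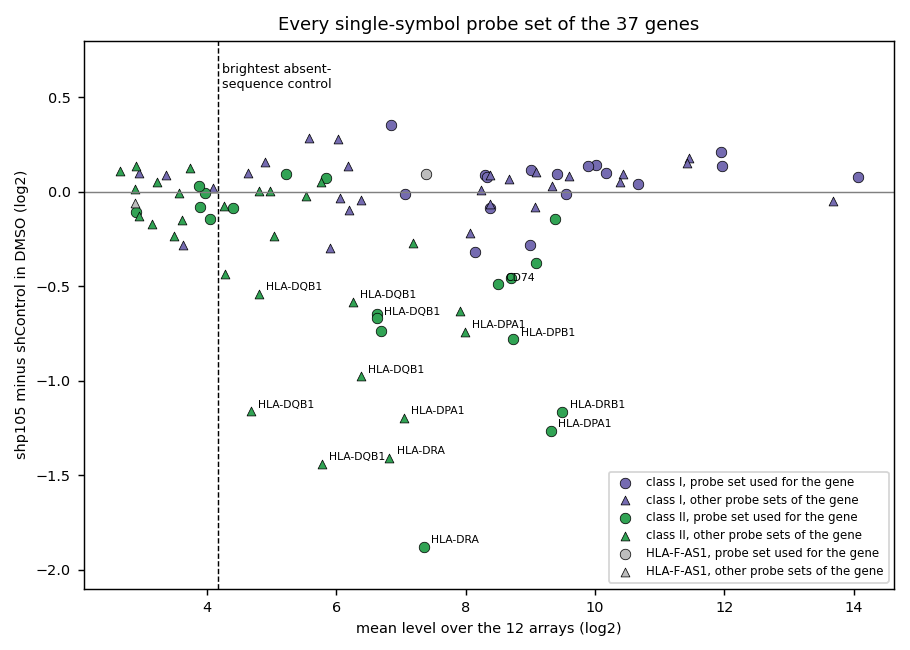
Line difference in DMSO (y axis, log2, shp105 minus shControl) against the mean level over the 12 arrays (x axis, log2) for all 92 probe sets of the 37 members; circles are the probe sets that stand for a gene, triangles the others, and the dashed line is the brightest control for an absent sequence (4.17). Probe sets of HLA-DRA, HLA-DPA1, HLA-DRB1 and HLA-DQB1 lie lowest, down to -1.88, and those left of the line lie near 0.

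TMZ moved the class II members less than the lines differed, with a median absolute difference of 0.07 in shControl and 0.10 in shp105 cells. Between the lines that class II value was 0.38 in DMSO and 0.26 in TMZ. For class I it was 0.08 and 0.11 for TMZ, near the 0.10 and 0.14 between the lines. In shControl cells 0 of 37 members were called, where 0.369% of all genes were, and 4 of 37 passed an unadjusted p under 0.05, as did 2180 of all 19775 genes. In shp105 cells 1 of 37 was called, TAP1, which was higher, where 0.865% of all genes were called and 0.647% called higher, and 11 of 37 passed unadjusted, as did 3225 of all genes. The class I median was 0.08 in shControl and 0.11 in shp105 cells, against 0.00 and 0.01 over all genes. In 7 of 17 class I genes every TMZ array of shControl cells lay above every DMSO array, as for 9.21% of all genes, and in shp105 cells in 10 of 17, as for 12.5%. The class II median was -0.06 in shControl and 0.06 in shp105 cells.

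TAP1 in shp105 cells went from 7.85, 7.86 and 7.88 with DMSO to 8.13, 8.19 and 8.10 with TMZ, which do not overlap. The rise was 0.28 (SE 0.06, 1.21-fold, adjusted p = 0.0486). In shControl cells it was 0.21 (SE 0.06, adjusted p = 0.186), also without overlap, and the difference between both responses was 0.07 (SE 0.08, adjusted p = 0.937). The call in shp105 cells sat at the threshold and was lost without any single one of 11 of the 12 arrays, the exception being shControl DMSO replicate 1 (adjusted p = 0.0597 to 0.138). HLA-B gave 0.19 (SE 0.05, adjusted p = 0.0819) in shp105 and 0.11 (SE 0.05, adjusted p = 0.407) in shControl cells. For HLA-F the responses were 0.18 (SE 0.04, adjusted p = 0.0851) and 0.10 (SE 0.04, adjusted p = 0.455).

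HLA-DRA differed by -0.16 (SE 0.09, adjusted p = 0.536) with TMZ in shControl cells and by 0.06 (SE 0.09, adjusted p = 0.769) in shp105 cells. HLA-DPA1 gave -0.16 (SE 0.05, adjusted p = 0.282) and 0.03 (SE 0.05, adjusted p = 0.808). CIITA gave 0.09 (SE 0.10) and -0.14 (SE 0.10). None of these was called. The difference of the TMZ responses between the lines was called for 0 of 37 members and for 0% of all genes, and 2 of 37 members, PSMB10 and HLA-DPA1, passed an unadjusted p under 0.05, as did 1266 of all 19775 genes. These 2 were named after their values were seen.

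**Figure D4:**
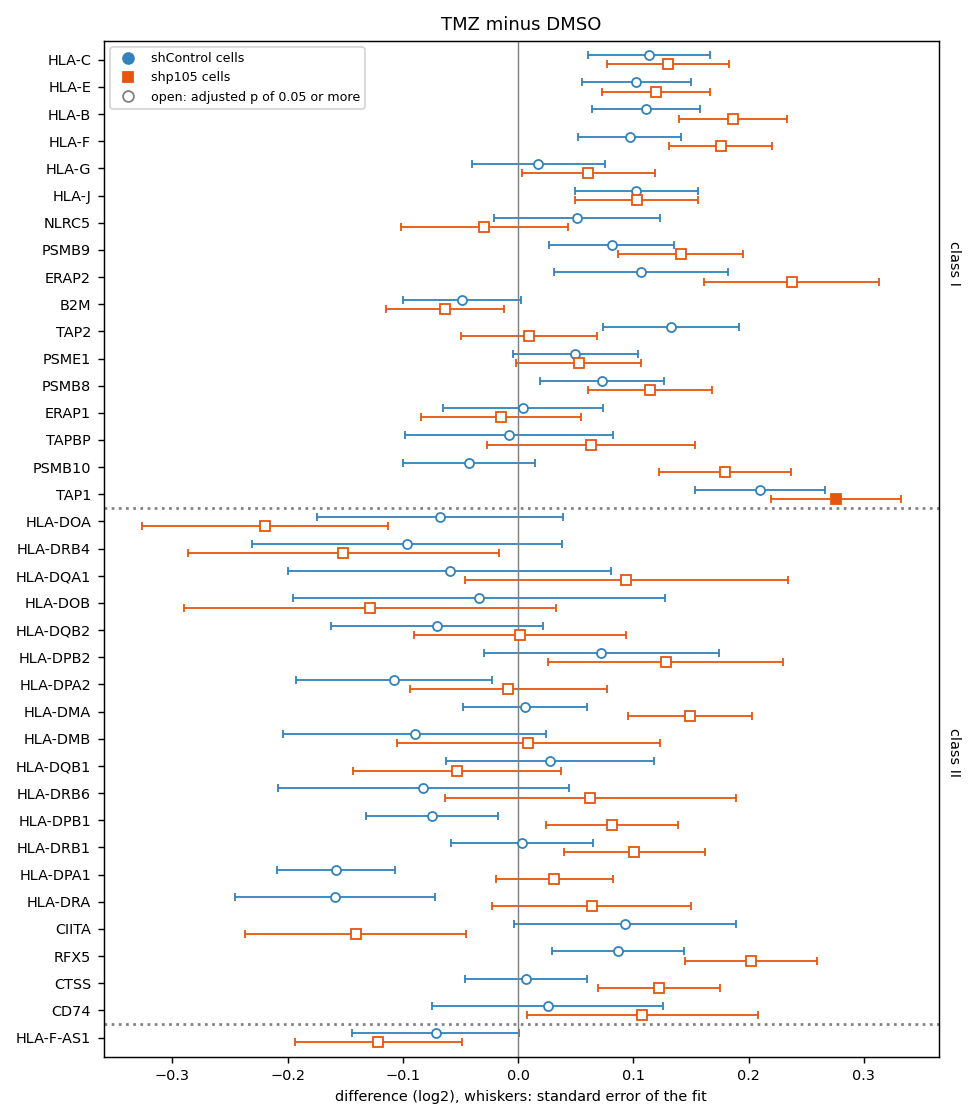
Response to TMZ, TMZ minus DMSO (x axis, log2), of the 37 members (y axis) in shControl cells (circles) and shp105 cells (squares), with the standard error of the fit; the filled square is the single call. TAP1 in shp105 cells, at 0.28, is called, and all differences lie between -0.22 and 0.28.

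Genes around antigen presentation were counted from lists by role. Of all genes 8.34% were called higher and 11.6% lower in DMSO, and 10.1% and 11% in TMZ. Of 7 loading chaperones and related genes, 1 was lower in DMSO and in TMZ: TAPBPL, a tapasin-like peptide editor, at -0.51 (SE 0.12) and -0.38 (SE 0.12). SPPL2A, the membrane protease that removes the last CD74 fragment, was higher in DMSO by 0.29 (SE 0.07). Of 9 genes of the standard proteasome and its other activators 0 were called in DMSO. At an unadjusted p under 0.05, 1 of the 9 passed there, as did 5898 of all 19775 genes. In TMZ 2 of the 9 were higher, PSMB7, a catalytic subunit, by 0.18 (SE 0.05) and PSME4, an activator, by 0.26 (SE 0.08).

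Endosomal proteases split. CTSV, a cathepsin close to cathepsin L, was lower by -0.46 (SE 0.09) in DMSO and -0.45 (SE 0.09) in TMZ, and CTSL, cathepsin L itself, by -0.23 (SE 0.05) in DMSO. In TMZ CTSH, cathepsin H, was higher by 0.48 (SE 0.11) and LGMN, the asparagine endopeptidase, by 0.32 (SE 0.08). In all, 2 of 7 were lower in DMSO (11.6% of all genes), and 2 were higher and 1 lower in TMZ (10.1% and 11%).

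Interferon gamma signalling had 1 of 11 genes higher and 3 lower in DMSO (8.34% and 11.6% of all genes), and 0 higher and 3 lower in TMZ (10.1% and 11%). IRF1, an interferon-induced transcription factor that activates CIITA and TAP1, was lower by -0.55 (SE 0.06, adjusted p = 6.05e-05) in DMSO and -0.41 (SE 0.06, adjusted p = 0.000545) in TMZ. PTPN2, a phosphatase that turns the pathway off, was lower by -0.35 (SE 0.06) and -0.27 (SE 0.06). SOCS3, a feedback inhibitor, was lower in DMSO by -0.34 (SE 0.08), and JAK2, a receptor kinase, was the higher one at 0.36 (SE 0.09), named after its value was seen. SOCS1, another feedback inhibitor, was lower in TMZ by -0.51 (SE 0.13). IFNG itself was at background in all 4 groups.

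Class I-like molecules and ligands of the activating receptor NKG2D had 1 of 16 genes higher and 1 lower in DMSO, both shares below those of all genes (8.34% and 11.6%), and 1 higher and 3 lower in TMZ (10.1% and 11%). ULBP2, an NKG2D ligand, was higher by 0.63 (SE 0.06, adjusted p = 1.05e-05) in DMSO and 0.56 (SE 0.06, adjusted p = 2.56e-05) in TMZ. MICA, another ligand of the same receptor, was lower by -0.58 (SE 0.06, adjusted p = 5.01e-05) and -0.54 (SE 0.06, adjusted p = 8.21e-05). CD1D, a lipid-presenting molecule at background level, was lower in TMZ by -0.28 (SE 0.07). The response to TMZ in this list was 1 gene in each line, named after its values were seen: FCGRT, the neonatal Fc receptor, which rose by 0.46 (SE 0.08, adjusted p = 0.0465) in shControl and 0.47 (SE 0.08, adjusted p = 0.0268) in shp105 cells. Among the loading chaperones HSPA5, also named after its value was seen and the main chaperone of the endoplasmic reticulum, fell by 0.28 (SE 0.05, adjusted p = 0.0277) with TMZ in shControl cells. Leaving out 1 array ended some of these calls (adjusted p = 0.0501 to 0.172): those of SPPL2A, PSMB7, PSME4, LGMN, JAK2, SOCS1 and HSPA5, of FCGRT in both lines and of TAPBPL in TMZ. With any 1 array left out, those of CTSV, CTSL, CTSH, IRF1, PTPN2, SOCS3, ULBP2, MICA and CD1D were kept.

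**Figure D5:**
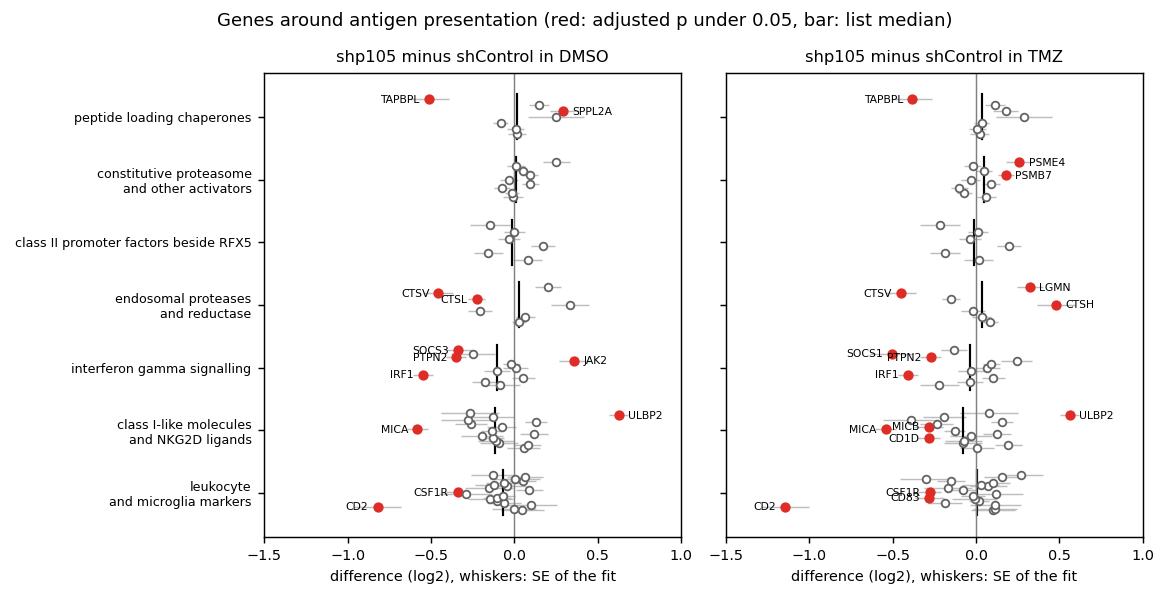
Line differences (x axis, log2, shp105 minus shControl) in DMSO (left) and TMZ (right) of the genes in 7 lists around antigen presentation (y axis), with the standard error of the fit; red points are called and named, open points are not, and black bars are list medians. MICA and IRF1 lie low and ULBP2 high under both treatments. Of 6 class II promoter factors 0 are called, where 19.9% (DMSO) and 21.1% (TMZ) of all genes are.

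Leukocyte and microglia markers were checked, since class II genes are normally theirs. Of 22 listed, 20 were measured, and 9 of them, PTPRC, TYROBP, CD14, LYZ, CX3CR1, P2RY12, TMEM119, CD8A and CD80, stood at the level of the absent-sequence controls in all 4 groups. In DMSO 2 of 20 were lower in shp105 cells (CD2 by -0.82, CSF1R by -0.34), where 11.6% of all genes were, and in TMZ 3 (CD2 by -1.15, CSF1R by -0.28, CD83 by -0.28), where 11% were. Leaving out 1 array ended the TMZ calls of CSF1R (adjusted p = 0.0566) and CD83 (0.0876 to 0.124). Summed on the linear scale, the 20 ran from 581 to 649 in shControl cells with DMSO and from 625 to 626 with TMZ. The sums in shp105 cells were 544 to 569 with DMSO and 565 to 578 with TMZ, below all shControl arrays under each treatment. The mean log2 level of the 20 overlapped between the lines in DMSO (4.37 to 4.53 in shControl, 4.32 to 4.38 in shp105 cells). In TMZ it lay apart (4.43 to 4.49 in shControl, 4.36 to 4.41 in shp105 cells). In DMSO 13 of the 20 differences were below 0, with a median of -0.07. In TMZ 10 of the 20 were above 0, with a median of 0.00. The part of these markers in the class II differences was not tested.

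Measures of the arrays themselves also moved with the groups. The mean level of the hybridization spike-ins was 10.63 (SD 0.05) in shControl cells with DMSO, 10.95 (SD 0.09) with TMZ, and 11.13 (SD 0.10) and 11.32 (SD 0.13) in shp105 cells. GAPDH probe sets at the 3′ end were brighter than those at the 5′ end, which tracks RNA integrity, by 0.25, 0.30, 0.36 and 0.40 in the same order. Once spike-in level entered the fit as a covariate, 5 members were called under each treatment, the same 5 in both: HLA-DRA, HLA-DRB1, HLA-DPA1, HLA-DPB1 and HLA-DMA, all lower. The differences of the other 5 of the 10 lower class II genes stayed below 0 with wider errors: in DMSO CTSS gave -0.39 (SE 0.13), CD74 -0.54 (SE 0.25), HLA-DRB6 -1.01 (SE 0.30), HLA-DMB -0.58 (SE 0.29) and HLA-DQB1 -0.51 (SE 0.22). The class II median was then -0.49 in DMSO and -0.38 in TMZ. The GAPDH measure entered no fit, so the part of RNA quality in these results was not tested.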

How the data were processed

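RNA of U-87 MG cells was measured on 12 Affymetrix arrays in 4 groups of 3. The deposited log2 values, 1 per probe set, were made by the authors with RMA and Affymetrix Power Tools, per the submitters' processing notes; versions and annotation release: not given in the sources used here. Gene symbols came from a table of GEO's platform annotation and from RefSeq (GRCh38.p14). Of 54675 probe sets 41097 had exactly 1 symbol and 1801 had several, which were not used for genes; 54 of the 41097 had an Entrez identifier that RefSeq did not hold. The brightest probe set by mean over all arrays stood for each gene, which left 19775 genes, with no filter on low levels.

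limma 3.58.1 in R 4.3.3 (lmFit and eBayes, 2-sided) fitted the 4 group means over all 12 arrays, with 8 residual degrees of freedom and 5 comparisons; p was adjusted by Benjamini-Hochberg over 19775 genes, and values under 0.05 were called. Errors of differences are standard errors of that fit. A level was near background at or under the highest group mean of 27 control probe sets for absent sequences. The number of arrays limits the precision. Named were all called members and class II regulators, and up to 3 called genes of each wider list by smallest p in each comparison of the lines. The glioma line markers were instead given by level and by count of calls. Other genes are said to be named after their values were seen. The members and lists were chosen with earlier results of these data known. Promoter windows were RefSeq's. The 12 alternatives and the arrays left out in turn are given at the end. Python 3.11.15 with matplotlib 3.10.9 drew the plots.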

Additional observations from a re-analysis of the deposited data

How the results depend on the processing

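Between the lines, 13 to 15 members were called in DMSO and 13 to 17 in TMZ when any 1 array was left out (14 and 17 with all arrays), and class II members called lower were 10 to 11 and 9 to 10. Over all alternatives, 474 of 476 differences of the 10 lower class II genes stayed below 0. These genes were picked for being lower on the same arrays, and several alternatives leave a difference unchanged. The count is therefore a description and not a test. Leaving out probe sets that can bind several transcripts (names with _x_at or _s_at) left 28 members, of which 8 were called in DMSO and 7 in TMZ, 6 of them class II and lower in each. There HLA-DPB1 turned to 0.14 in DMSO, HLA-DRB6 to 0.030 in TMZ and HLA-F to -0.10 in TMZ, on dim probe sets and not called. With genes below the median level left out, HLA-B (adjusted p = 0.0171), HLA-E (0.0136) and HLA-F (0.0126) were called higher in DMSO and HLA-G (0.0412) and ERAP2 (0.0185) in TMZ. With the mean of all probe sets HLA-F lost its TMZ call (0.10, adjusted p = 0.289). A spike-in covariate left 5 members called in DMSO and 5 in TMZ, while 523 and 1045 of all genes were.

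The TMZ response of shp105 cells, 1 called member, became 0 with every probe set on its own and each array centred on its median. It was also 0 with array weights, only the compared groups, the replicate block, the spike-in covariate and at an adjusted p under 0.01. Without _x_at and _s_at probe sets it was 0 too, but TAP1, read only by such a probe set, was not measured there. The count became 6 with genes below the median level left out (HLA-B, HLA-F, TAP1, PSMB10, ERAP2 and RFX5). There 904 of the genes kept were called, against 171 of all genes in the main fit. The count became 5 with trend and robust fitting, where 937 of all genes were called. With arrays left out in turn it was 0 to 1. In shControl cells it was 0, and 1 (TAP1, adjusted p = 0.0402) with genes below the median level left out. In that setting 291 of the genes kept were called, against 73 of all genes in the main fit. No alternative called a member for the difference of the responses; with arrays left out in turn it was 0 to 0.

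The replicate number as a block gave 14 members in DMSO, 15 in TMZ and 0 in both TMZ responses. Of 18 pairs of arrays with the same number the deviations correlated at -0.14 to 0.12, 2 over 0.1, and 4 of 12 arrays matched best with their own number, so the numbers were not taken to pair the samples. The number of arrays and the background of dim probe sets limit what small class I differences can show.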

Other observations

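A further 6 HLA probe sets list several class II symbols each and were used for no gene. The 3 bright ones, at mean levels of 9.36, 9.50 and 8.75, were lower in shp105 cells by -1.08 (SE 0.09), -1.35 (SE 0.07) and -1.50 (SE 0.07) in DMSO and by -1.03, -1.20 and -1.27 in TMZ. A dim one, at a mean level of 3.33, was lower by -0.50 (SE 0.15, limma adjusted p = 0.0374) in DMSO and by -0.76 (SE 0.15, adjusted p = 0.0036) in TMZ, and the other two, at 3.14 and 3.80, were not called.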
